A study of Sus scrofa with 28 samples.

Results

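The proteins of the large ribosomal subunit were followed through 14 probes listed for 8 genes: RPL6, RPL10A, RPL11, RPL12, RPL19, RPL23, RPL27 and RPL29. They were all the probes among the 4608 of the array whose annotation gives exactly 1 of these symbols. RPL11 and RPL19 have 3 probes each, RPL12 and RPL29 have 2 each, and RPL6, RPL10A, RPL23 and RPL27 have 1 each. Muscle RNA came from the semimembranosus, a ham muscle, of 7 normal pigs, chosen for low meat lightness (L*), and 7 pigs with high L* whose meat was destructured, a pale defect in which the muscle loses its fibrous structure. The labels name no treatment or genotype for either group, and each pig gave 1 nylon cDNA array with a left and a right part that carry the same probes. Normal replicate 2 and destructured replicate 3 have the same pig number in the labels, and the labels do not say whether they are 1 animal.

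Ribosomes translate messenger RNA into protein, and the large subunit joins amino acids into the chain. Its proteins surround a core of ribosomal RNA, and cells make them in matched amounts. Muscle growth depends in part on how many ribosomes a fibre holds and how active they are, and several free large subunit proteins also bind MDM2, the regulator of p53, when ribosome assembly is disturbed. Ribosomal protein genes have many near-identical processed copies in mammalian genomes, so a cDNA probe can bind more than 1 transcript, and the listed gene is uncertain to that extent. The names come from an old annotation of the array, and whether names and values are aligned row by row was not tested here, so each probe stands for its gene only as listed.

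Deposited spot intensities ran from 0.0393 to 443.3 on a linear scale, and the column medians ran from 1.69 to 3.67. Values below are log2 intensities after quantile normalization, averaged over the 2 parts of an array, and a probe's level is compared only with itself. The parts of an array correlated across probes at a median of 0.947 over the pigs. In normal replicate 3 they correlated at only 0.373 (next lowest 0.869), so that pig stands apart, and results are also given without its right part where they move. The array medians on the deposited log2 scale were 1.33 ± 0.28 in normal and 1.52 ± 0.157 in destructured pigs (SD, n = 7 each; exact two-sided permutation test, p = 0.147). Of the 14 skeletal muscle markers sought, 9 had named probes, 125 in all, and their summed log2 level ran from 9.11 to 9.37 in normal and from 9.27 to 9.40 in destructured pigs. For other cell types 2 of 6 adipocyte markers, 1 of 6 fibroblast and matrix markers, 1 of 4 endothelial and 2 of 5 immune markers had named probes, none of which passed the test, and the blood and nerve lists had none. In bulk RNA of this kind, fewer cells of a type and less RNA per cell cannot be told apart.

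No probe listed for a large subunit protein passed the comparison of destructured with normal muscle. By limma with Benjamini-Hochberg adjustment over all 4608 probes, 0 of 14 had an adjusted p under 0.05, where 0.651% of all probes did. The exact permutation test with the same adjustment also called 0 of 14, where it called 1.28% of all probes. With the right part of normal replicate 3 left out, limma again called 0 of 14, where 2.93% of all probes passed. At an unadjusted p under 0.05 by limma stood 3 of the 14, beside 13.0% of all probes. They were RPL19 probe 5118 and RPL29 probe 7792, both with positive fold changes, and RPL11 probe 5818, with a negative one. With the right part of normal replicate 3 left out, 4 of the 14 stood there, beside 15.7% of all probes. These were RPL29 probe 7792 (limma, unadjusted p = 0.00859), RPL19 probe 5118 (0.00875), RPL12 probe 9097 (0.0121) and RPL10A (0.0462), while RPL11 probe 5818 was then at 0.0503. The groups overlapped for each of the 14 probes, while they did not overlap for 1.28% of all probes. The exact permutation test gives its smallest p, 5.83e-04, only where the groups do not overlap. Its calls and the probes without overlap number 59 each, so these are 1 result and not 2. Log2 fold changes (destructured minus normal) ran from -0.58 for RPL10A to 0.51 for RPL19 probe 5118, with 5 above and 9 below 0. Their median was -0.096, and that of all probes was -0.021, with 46.3% of all probes above 0.

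**Figure D1:**
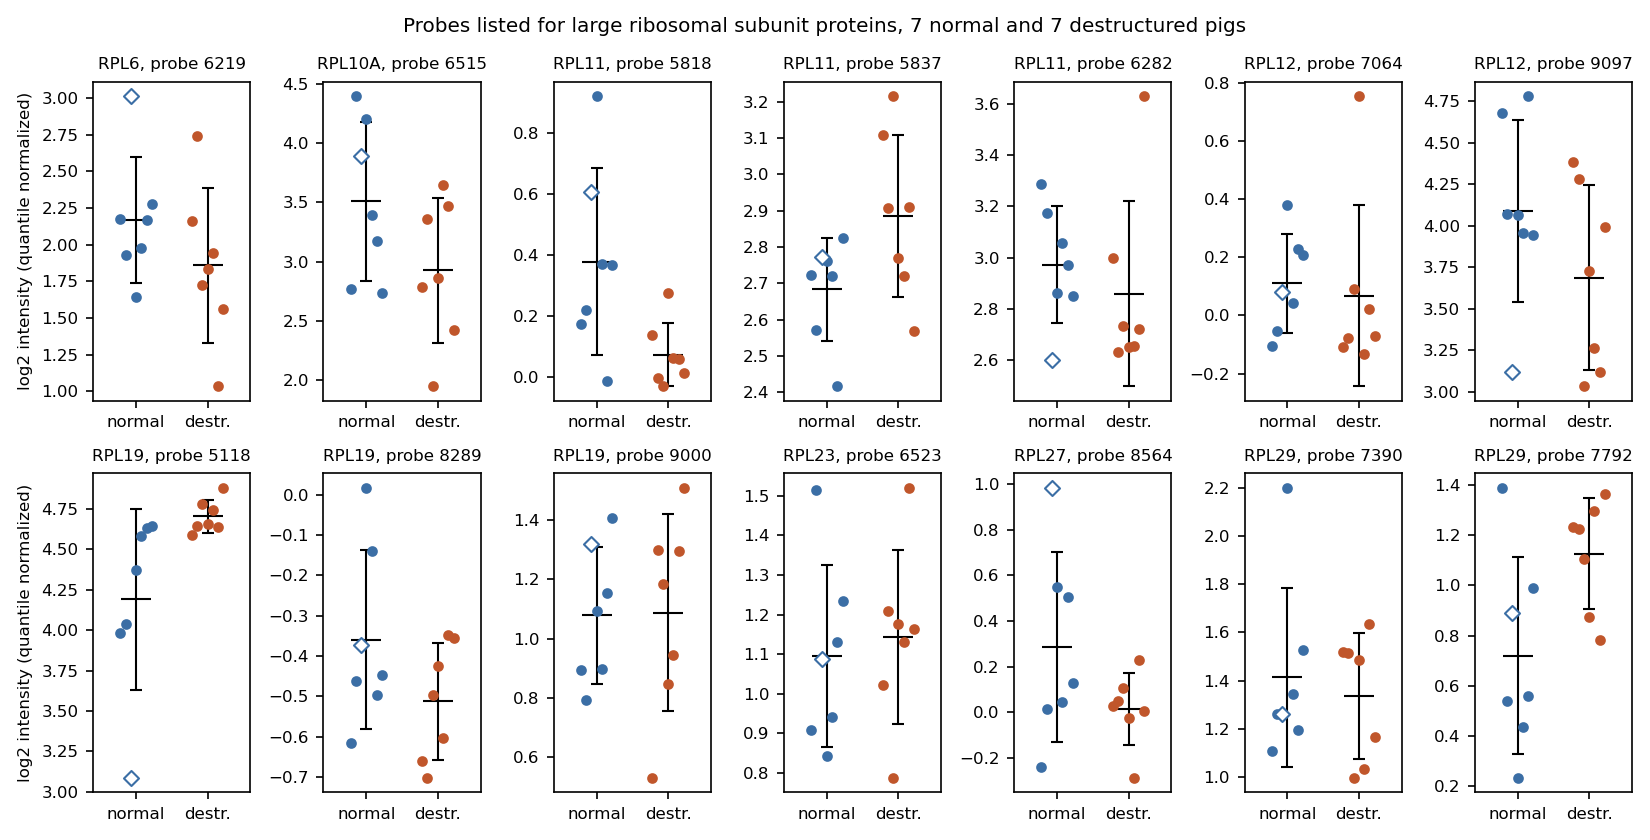
Log2 intensity (vertical axis, quantile normalized, its range set for each panel) of the 14 probes in each normal and each destructured pig (horizontal axis, 7 pigs each); bars are the mean ± SD and the open diamond is normal replicate 3. The groups overlap in every panel, and normal replicate 3 is the lowest normal pig for RPL19 probe 5118, at 3.09.

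RPL10A forms the flexible stalk beside the site where used transfer RNA leaves the ribosome. Its probe 6515 had the most negative fold change of the 14. The 7 normal pigs lay between 2.73 and 4.40 with a median of 3.40, and the 7 destructured pigs between 1.95 and 3.65 with a median of 2.86. The ranges overlapped between 2.73 and 3.65, with destructured replicate 3 the lowest of all pigs and normal replicate 2 the highest. The mean was 3.51 ± 0.67 in normal and 2.93 ± 0.611 in destructured muscle (SD, n = 7 each). This is a log2 fold change of -0.58 (SE 0.30, 95% interval -1.21 to 0.047, adjusted p = 0.416 by limma). These pigs at the ends of the range are the same samples that share a pig number. Without both of them the log2 fold change was -0.27 (SE 0.27, adjusted p = 0.762).

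RPL12 sits at the base of the other stalk, where elongation factors bind. Probe 9097 lay between 3.12 and 4.78 in normal pigs, with a median of 4.06, and between 3.03 and 4.38 in destructured pigs, with a median of 3.73. Its log2 fold change was -0.40 (SE 0.26, 95% interval -0.95 to 0.15, adjusted p = 0.528). The lowest normal pig was replicate 3, whose left part read 4.60 and right part 1.64. Without that right part the log2 fold change was -0.61 (SE 0.22, adjusted p = 0.163). Probe 7064 of the same gene had a log2 fold change of -0.043 (SE 0.14, adjusted p = 0.928). It lay between -0.11 and 0.38 in normal pigs (median 0.079) and between -0.13 and 0.75 in destructured pigs (median -0.072). By mean level it was dim, at the 13.5th percentile of all probes. The highest destructured pig, replicate 4, read 1.43 on the left and 0.081 on the right part, so its parts disagreed by more than the whole spread of the other pigs.

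RPL11 enters the ribosome together with RPL5 and a small ribosomal RNA, and in free form it is the best known inhibitor of MDM2 among ribosomal proteins. Its 3 probes had fold changes of both signs. Probe 5818 lay between -0.012 and 0.92 in normal pigs (median 0.37) and between -0.028 and 0.28 in destructured pigs (median 0.059). All 7 destructured pigs were below the normal mean, but 3 normal pigs lay among them, and destructured values were closer together (SD 0.104 against 0.307). The log2 fold change was -0.30 (SE 0.14, 95% interval -0.59 to -0.017, unadjusted p = 0.0391, adjusted p = 0.350 by limma).

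Probe 5837 of RPL11 had a positive fold change. Normal pigs lay between 2.42 and 2.83 (median 2.72) and destructured pigs between 2.57 and 3.22 (median 2.91), with 6 of 7 destructured pigs above the normal mean. On the log2 scale the fold change was 0.20 (SE 0.12, 95% interval -0.058 to 0.46, adjusted p = 0.506). Probe 6282 lay between 2.60 and 3.29 in normal pigs (median 2.97) and between 2.63 and 3.63 in destructured pigs (median 2.72). Destructured replicate 7 alone stood above the normal range, with its left part at 4.55 and its right part at 2.72. Probe 6282 had a log2 fold change of -0.11 (SE 0.16, adjusted p = 0.817), and -0.24 (SE 0.16, adjusted p = 0.490) without the right part of normal replicate 3. Without destructured replicate 7 it was -0.24 as well (SE 0.13, adjusted p = 0.530).

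RPL23 lies on the face of the large subunit that meets the small one and is another MDM2 binder. Its probe 6523 had a fold change close to 0. Normal pigs lay between 0.84 and 1.51 (median 1.09) and destructured pigs between 0.79 and 1.52 (median 1.16), so each group spanned almost the whole range of the other. The log2 fold change was 0.050 (SE 0.14, adjusted p = 0.914) with a 95% interval from -0.24 to 0.33.

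RPL19 reaches from the large subunit to the small one and forms part of a bridge between them. Probe 5118 had the most positive fold change of the 14. Normal pigs lay between 3.09 and 4.64 (median 4.37), and destructured pigs between 4.59 and 4.88 (median 4.65). All 7 destructured pigs were above the normal mean, while the 2 highest normal pigs, replicates 6 and 7 at 4.63 and 4.64, overlapped the lowest destructured ones. Destructured pigs were close together, with an SD of 0.102 against 0.558 in normal pigs. The log2 fold change was 0.51 (SE 0.20, 95% interval 0.093 to 0.93), a 1.43-fold higher mean, with an unadjusted p of 0.0196 and an adjusted p of 0.250 by limma. Its exact two-sided permutation p was 0.00466, and 0.107 after adjustment over all probes.

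Normal replicate 3 carried part of this difference. Its left part read 4.11 and its right part 2.07, and without that right part the log2 fold change was 0.37 (SE 0.12, adjusted p = 0.140). The other probes listed for RPL19 had fold changes closer to 0. Probe 8289 lay between -0.62 and 0.018 in normal pigs (median -0.45) and between -0.70 and -0.35 in destructured pigs (median -0.50), with a log2 fold change of -0.15 (SE 0.12, adjusted p = 0.629). Probe 9000 lay between 0.79 and 1.41 in normal pigs (median 1.09) and between 0.53 and 1.51 in destructured pigs (median 1.19), with a log2 fold change of 0.0084 (SE 0.16, adjusted p = 0.991).

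RPL6 and RPL27 bind ribosomal RNA at the outside of the large subunit. RPL6 probe 6219 lay between 1.64 and 3.01 in normal pigs (median 2.17) and between 1.03 and 2.74 in destructured pigs (median 1.84). Normal replicate 3 was the highest pig, from 1.86 on the left and 4.16 on the right part. The log2 fold change was -0.31 (SE 0.23, adjusted p = 0.586), and -0.14 (SE 0.19, adjusted p = 0.773) without that right part. RPL27 probe 8564 lay between -0.24 and 0.99 in normal pigs (median 0.13) and between -0.29 and 0.23 in destructured pigs (median 0.026). By mean level this probe was dim, at the 14.6th percentile of all probes. All 7 destructured pigs were below the normal mean, and normal replicate 3 was again the highest pig, with 0.16 on the left and 1.82 on the right part. RPL27 had a log2 fold change of -0.27 (SE 0.17, adjusted p = 0.508), and -0.15 (SE 0.13, adjusted p = 0.613) without the right part of that pig.

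RPL29 is a small, strongly basic protein that has also been described as a heparin-binding protein of the cell surface. Probe 7792 lay between 0.23 and 1.39 in normal pigs (median 0.56) and between 0.78 and 1.37 in destructured pigs (median 1.23). All 7 destructured pigs were above the normal mean, but the highest pig of all was normal replicate 1, whose left part read 1.98 and right part 0.80. The log2 fold change was 0.41 (SE 0.17, 95% interval 0.053 to 0.76, unadjusted p = 0.0267, adjusted p = 0.296 by limma), a 1.33-fold higher mean. Without normal replicate 1 it was 0.52 (SE 0.15, adjusted p = 0.0853 by limma). Without normal replicate 4 it was 0.33 (SE 0.16, adjusted p = 0.451 by limma). With the right part of normal replicate 3 left out it was 0.48 (SE 0.16, adjusted p = 0.139 by limma). Probe 7390 lay between 1.11 and 2.20 in normal pigs (median 1.26) and between 1.00 and 1.63 in destructured pigs (median 1.49). Its fold change on the log2 scale was -0.079 (SE 0.17, adjusted p = 0.891), and normal replicate 4 was the highest pig, with 3.09 on the left and 1.32 on the right part.

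**Figure D2:**
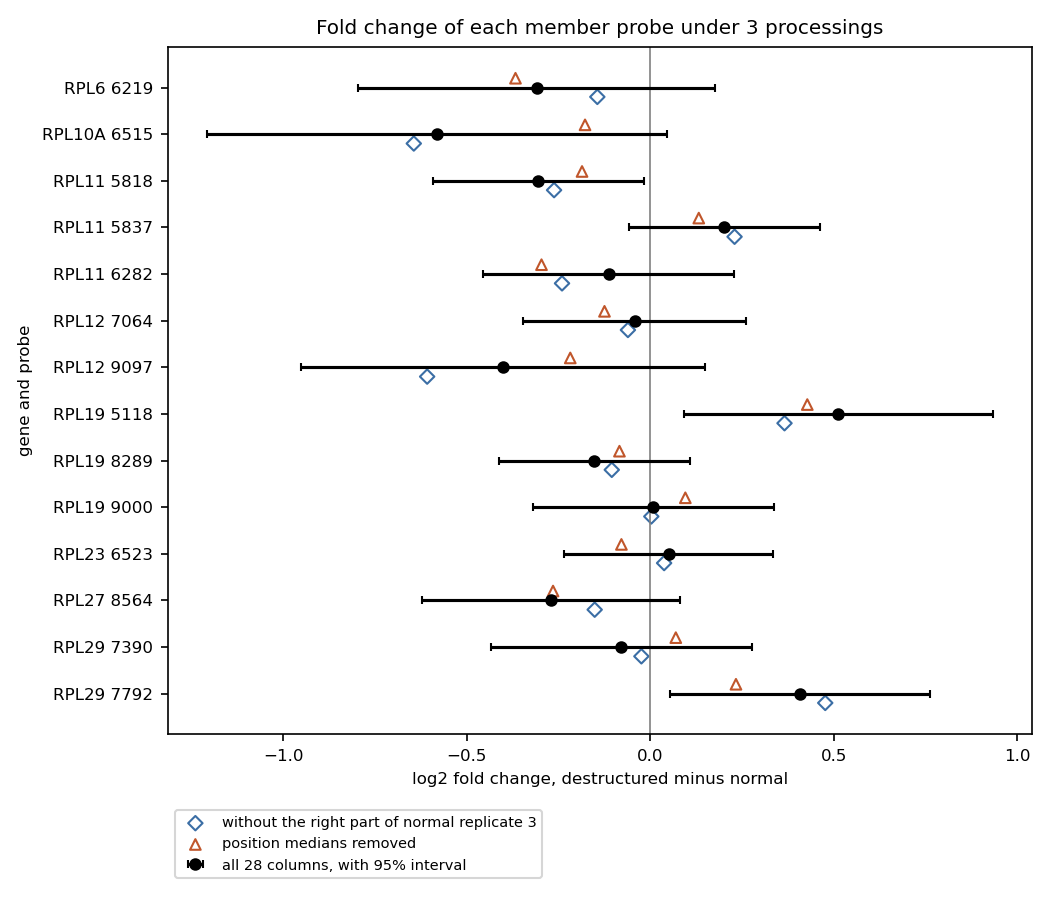
Log2 fold change, destructured minus normal (horizontal axis), of each of the 14 probes (vertical axis) from all 28 columns with its 95% interval (black), from the same columns less the right part of normal replicate 3 (blue diamonds) and with position medians removed (orange triangles). The intervals of RPL11 probe 5818, RPL19 probe 5118 and RPL29 probe 7792 do not reach 0 before adjustment; the sign of RPL23 and of RPL29 probe 7390 turns when position medians are removed.

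Probes listed for 1 gene did not all point 1 way. For 8 pairs of probes of the same gene, a comparison added after the data were seen, the difference of the fold changes was tested by an exact two-sided permutation test over pigs, adjusted over the 8 pairs. RPL11 probes 5837 and 5818 differed by 0.51 on the log2 scale (p = 0.00117, adjusted p = 0.00932). The first exceeded the second by 2.30 ± 0.238 in normal and by 2.81 ± 0.262 in destructured muscle (SD, n = 7 each), and only the change of this gap between the groups is read. RPL19 probes 5118 and 8289 differed by 0.67 (p = 0.0035, adjusted p = 0.0140), and by 0.47 once the right part of normal replicate 3 was left out (exact permutation test, adjusted p = 0.0140). In the other 6 pairs the adjusted p ran from 0.0901 to 0.432. With position medians removed neither pair passed, at 0.32 for RPL11 and 0.51 for RPL19 (exact permutation test, adjusted p = 0.157 for both). On the deposited scale neither passed, at 0.35 and 0.63 (exact permutation test, adjusted p = 0.316 for both). Both passed with each pig left out in turn, but RPL19 did not without both samples of the shared pig number (0.65, exact permutation test, adjusted p = 0.0519). It also did not pass from the left part alone (0.40, exact permutation test, adjusted p = 0.133) or the right part alone (0.93, adjusted p = 0.0606), and RPL11 did not from the right part alone (0.23, adjusted p = 0.342). In each pair 1 probe was dim: by mean level, RPL11 probe 5818 was at the 16.4th and RPL19 probe 8289 at the 4.49th percentile of all probes, so a filter on the dimmest 25% leaves both out and neither difference can then be computed.

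Averaging the probes of a gene before the fit gave no called gene either. By limma over 4310 genes and single unnamed probes, 0 of 8 genes had an adjusted p under 0.05, where 0.696% of these features did. None of the 8 had an unadjusted p under 0.05, beside 13.2% of all features. The averaged log2 fold change was -0.072 for RPL11 (95% interval -0.29 to 0.14), -0.22 for RPL12 (-0.55 to 0.11), 0.12 for RPL19 (-0.14 to 0.38) and 0.16 for RPL29 (-0.070 to 0.40). All 4 intervals include 0.

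The mean fold change of all probes varied with place in the table. The table repeats a layout of 72 rows, read here as 6 lines of 12 columns. The column means, each over 384 probes, ran from -0.19 in column 11 to 0.19 in column 7. RPL10A lies in column 11, and its own value was -0.58. RPL19 probe 5118 lies in column 6, with a mean of 0.13, and RPL29 probe 7792 in column 4, also with a mean of 0.13. In columns 2 to 7, 4 of the 6 large subunit probes had a fold change above 0, beside 64.3% of all probes there. In columns 1 and 8 to 12, 1 of 8 did, beside 28.3% of all probes there. Columns 2 to 7 all had means above 0, and columns 1 and 9 to 12 had means below 0. The shares of all probes thus differ by the way the columns were grouped. Column 8 was counted with the second set although its mean was above 0. Members did not all take the sign of their own column. RPL6 in column 3 (mean 0.098) and RPL11 probe 6282 in column 6 were below 0. So were RPL12 probe 7064 and RPL27 in column 8 (mean 0.034), while RPL19 probe 9000 was at 0.0084 in column 12 (mean -0.16). Position medians were removed within each array part, as the median of all probes at each of the 72 places of the layout. The shift of a probe therefore need not equal the mean of its column. With position medians removed some values moved towards 0, RPL10A from -0.58 to -0.18 and RPL29 probe 7792 from 0.41 to 0.23. Others moved away from 0, RPL11 probe 6282 from -0.11 to -0.30 and RPL6 from -0.31 to -0.37 (SE 0.18, adjusted p = 0.508). RPL19 probe 5118 was then at 0.43 (SE 0.22, adjusted p = 0.517). At an unadjusted p under 0.05 stood 0 of 14 after this removal, beside 10.6% of all probes. Whether the position pattern has a part in the values of single probes was not tested beyond this removal.

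**Figure D3:**
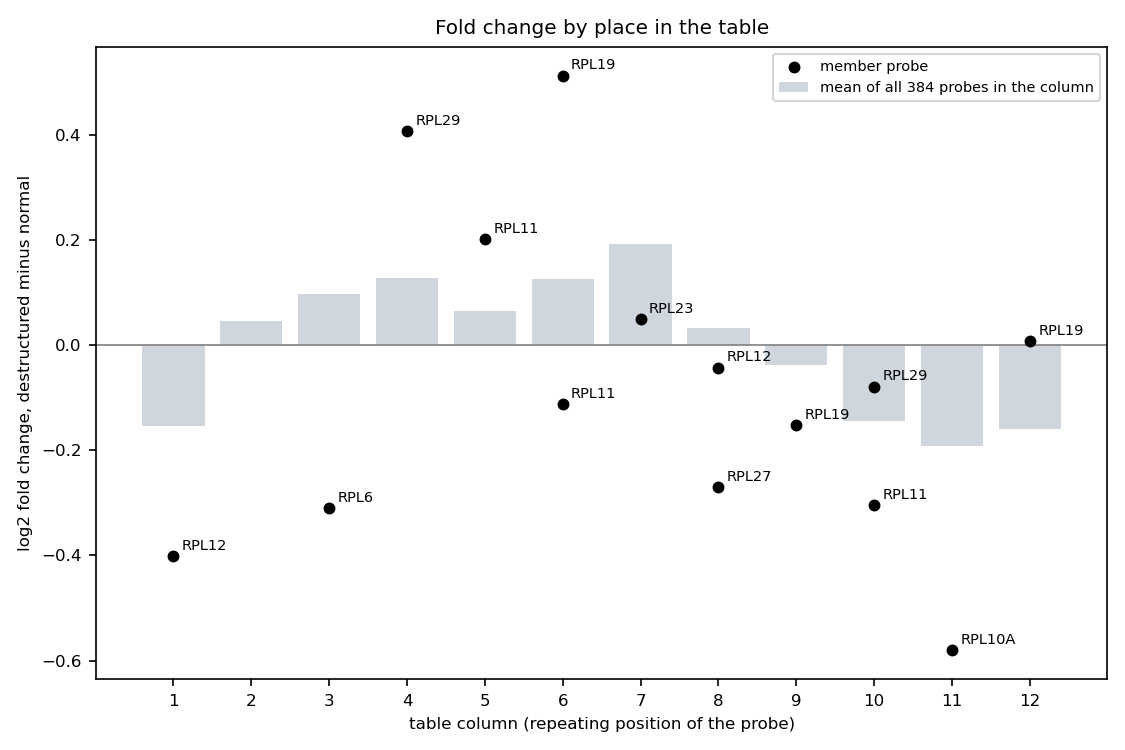
Log2 fold change, destructured minus normal (vertical axis), of the 14 large subunit probes (points, named by gene) by table column (horizontal axis), over bars for the mean of all 384 probes of each column. The bars run from -0.19 to 0.19, and the points from -0.58 for RPL10A to 0.51 for RPL19 probe 5118; both points of column 8, where the bar is at 0.034, lie below 0.

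Across the 14 pigs the large subunit probes did not vary as 1 group. Over the 83 pairs of probes of different genes the Pearson correlation had a median of -0.018, from -0.75 to 0.72, and over all pairs of probes on the array the median was -0.0011. For the 8 pairs within a gene the median was -0.084, from -0.53 for the RPL29 probes to 0.19 for RPL19 probes 8289 and 9000. The highest values joined RPL11 probe 5818 with RPL19 probe 8289 (0.72) and with RPL29 probe 7390 (0.66), all in columns 9 and 10. The 2 probes of the first pair were dim, at the 16.4th and 4.49th percentile of all probes by mean level. The lowest was between RPL19 probe 8289 in column 9 and RPL29 probe 7792 in column 4. With position medians removed these 3 correlations were 0.64, 0.53 and -0.59. Pairs of different genes within 1 set of columns (2 to 7, or 1 and 8 to 12) had a median of 0.13 over 40 pairs. Pairs across the 2 sets had a median of -0.10 over 43 pairs. Whether place in the table has a part in these correlations was not tested beyond this split and the removal. The points of each correlation share their arrays and normalization, so these values only describe the 14 pigs.

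**Figure D4:**
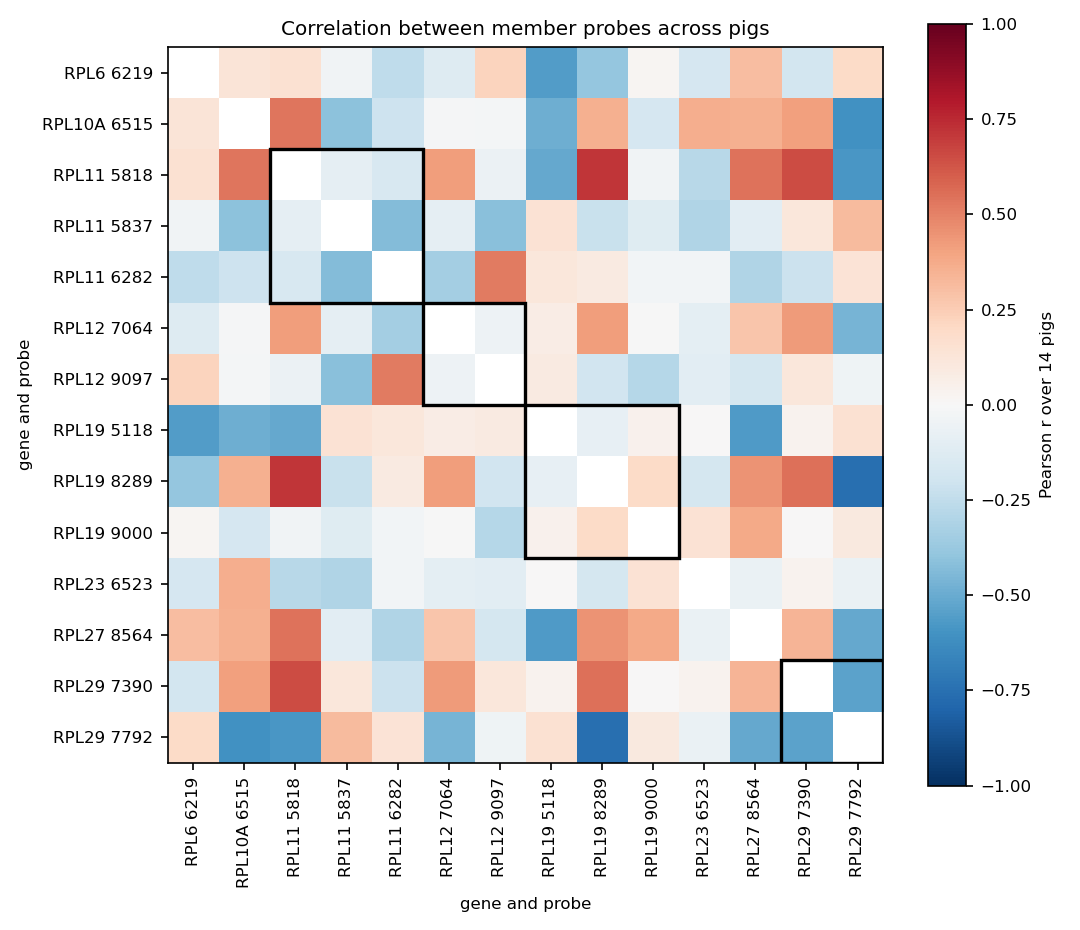
Pearson correlation over the 14 pigs (colour scale from -1 to 1) between the 14 large subunit probes, named on both axes; black squares frame probes listed for 1 gene. The framed values run from -0.53 to 0.19, and the strongest positive value is 0.72, between RPL11 probe 5818 and RPL19 probe 8289.

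Some single pigs were extreme for several probes. Destructured replicate 3 was the lowest of the 14 pigs for 5 of the 14 probes, and normal replicate 4 and destructured replicate 7 were each the highest for 3. The mean standardised level of the 8 genes, each averaged over its probes, ran from -0.19 to 0.53 in normal pigs and from -0.68 to 0.32 in destructured pigs. Its lowest pig was destructured replicate 3 and its highest normal replicate 4, the pig with the lowest array median on the deposited log2 scale (0.867). Left and right parts differed for a probe by a pooled SD of 0.20 (RPL23) to 0.80 (RPL12 probe 9097), against 0.19 to 0.64 between pigs of a group, the pig values being means of both parts. Without normal replicate 3 the SD between parts ran from 0.11 (RPL19 probe 5118, 0.40 with that pig) to 0.60 (RPL12 probe 9097). Of all named genes outside the 8, the probes closest to the mean standardised level were those listed for UGP2 (r = 0.759 over 14 pigs), TFIP11 (0.685) and ACTB (0.667), the highest among 495 probes whose median r was 0.043. Their own log2 fold changes were -0.17, -0.27 and -0.39, and none passed (limma, adjusted p = 0.668, 0.540 and 0.526). The 3 lie in table columns 9, 11 and 11. Columns 1 and 8 to 12 hold 8 of the 14 large subunit probes, and whether shared place has a part in the likeness was not tested.

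In the rest of the translation machinery 1 probe passed, where 0.651% of all probes did. No other large subunit gene has a named probe. Of the 28 probes of 13 small subunit genes, 10 had positive and 18 negative log2 fold changes (median -0.066, beside 46.3% of all probes above 0), and the 1 that passed was RPS3 probe 7134 (0.69, SE 0.14, adjusted p = 0.0343 by limma). With position medians removed it did not pass (0.60, adjusted p = 0.0780 by limma). FAU, whose product is cut to a small subunit protein, was at 0.86 (adjusted p = 0.0549) and passed with the right array part of normal replicate 3 left out (0.75, adjusted p = 0.0169 by limma). With position medians removed FAU did not pass (0.73, adjusted p = 0.130 by limma). RPS3A was at 0.37 (adjusted p = 0.170), and at 0.20 with position medians removed (adjusted p = 0.603 by limma). Of the 10 probes of 5 translation factor genes 3 were positive and 7 negative (median -0.15), with TPT1 at -0.55 (adjusted p = 0.289) and 2 probes of EEF1A1, the factor that brings transfer RNA to the ribosome, at -0.31 and -0.47 (adjusted p = 0.338 and 0.471). None of the 16 genes of ribosome making, the 18 of mTOR signalling and muscle growth or the 8 of ribosomal stress sought has a named probe.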

How the data were processed

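The authors deposited linear spot intensities in 28 columns for 14 pigs. Per the labels' protocols, cDNA labelled with radioactive phosphorus was hybridised to nylon arrays after a first hybridisation with an oligonucleotide that checks the DNA in each spot, and spots were quantified with BZscan. Background correction, scaling and division by the first signal are not given in the sources used here.

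Intensities were taken to log2, quantile normalized and averaged over the left and right part per pig, which is the replicate. Destructured was compared with normal with limma 3.58.1 (lmFit, eBayes) in R 4.3.3, a single group term and all probes kept, Benjamini-Hochberg adjustment over 4608 probes, threshold 0.05. Errors of fold changes are moderated standard errors. The number of arrays limits the precision.

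Gene names come from an old platform annotation that names 509 probes by 1 symbol (211 symbols); 1 probe with several names no gene. All 8 large subunit genes were found in RefSeq by Entrez identifier under the same symbol. The genes and lists were chosen with earlier results of these data known. Every probe of the 8 genes is named, and the 3 probes with the smallest p of each other translation list. The cell type markers are given by counts. The fit was tested on simulated data. Plots used Python 3.11.15 and matplotlib 3.10.9.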

Additional observations from a re-analysis of the deposited data

Results flagged for a closer look

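Among the 28 sets of 7 pigs formed by the 14 probes and the 2 groups, 4 held 1 pig far from the rest (its gap to the next pig was over 0.568 of the range within the group), where chance gives about 1 in 20. For RPL11 probe 6282 destructured replicate 7 was at 3.63 and the next pig at 3.00. For RPL12 probe 7064 destructured replicate 4 was at 0.75 and the next at 0.089. For RPL19 probe 5118 normal replicate 3 was lowest at 3.09, with the next at 3.98. For RPL29 probe 7390 normal replicate 4 was at 2.20 and the next at 1.53. In each of these 4 the left and right part of that pig's array differed by 1.34 or more on the log2 scale. The correlation of the array parts in normal replicate 3 (0.373) also stood apart from the other normal pigs, of which the nearest was at 0.869.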

How the results depend on the processing

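In each of the 31 alternatives run, 0 large subunit probes or genes passed. A threshold of 0.10 was applied only to the fit as reported, and the other alternatives kept 0.05. The smallest adjusted p among the 14 probes over these alternatives was 0.0817 by limma, for RPL29 probe 7792 with array weights. Without normal replicate 1 the same probe was at 0.0853 by limma. The number at an unadjusted p under 0.05 was 3 in the comparison as reported and ran from 0 to 5. It was 0 with the right part alone (9.81% of all probes), with position medians removed and without the samples of the shared pig number (10.5%), and 5 without normal replicate 1 (16.0%). The median log2 fold change of the 14 probes was -0.096; it was 0.17 on the deposited scale, where the median of all probes was 0.21, and -0.21 without the dimmest 50% of probes, which left 6 of the 14. Leaving out 1 pig at a time moved it between -0.13 and -0.044.

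Some values turned sign, of which RPL27 was the largest as reported (-0.27). On the deposited scale they were 0.093 for RPL11 probe 6282, 0.24 for RPL12 probe 7064, 0.13 for RPL19 probe 8289, 0.020 for RPL27 and 0.21 for RPL29 probe 7390. Of these only RPL12 probe 7064 lay above the median of all probes on that scale. With median centring RPL12 probe 7064 was at 0.029. RPL19 probe 9000 was at -0.098 with the left part alone and at -0.056 without the shared pig number. RPL23 was at -0.062 with the right part alone, -0.079 with position medians removed and -0.060 with the right part of normal replicate 3 left out as well; RPL29 probe 7390 was then at 0.069 and 0.13. Leaving out 1 pig gave -0.062 to 0.10 for RPL19 probe 9000, -0.16 to 0.0020 for RPL12 probe 7064, -0.13 to 0.052 for RPL29 probe 7390 and -0.013 to 0.12 for RPL23. The difference between RPL19 probes 9000 and 8289 was -0.076 with the left part alone, and that between RPL11 probes 6282 and 5818 was -0.11 with position medians removed and -0.21 with both changes. The cause was not tested.

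Over all probes 30 passed as reported. The count was 2 on the deposited scale, 6 with median centring, 53 with an offset of 1, 49 and 56 without the dimmest 25% and 50%, 12 from the left and 1 from the right part, 135 without the right part of normal replicate 3, 5 with position medians removed, 17 with both, 3 without the shared pig number, 6 with trend and robust variances, 129 with array weights, 59 by the exact permutation test and 111 at a threshold of 0.10. With the array part number of the titles as a fixed term and group with replicate number as a random block it was 107. There 0 of the 14 large subunit probes passed. The correlation between the 2 parts within a block was estimated at only 0.14, so this fit counted them as nearly separate values. Without normal replicates 1 to 7 in turn the count was 56, 3, 84, 4, 5, 25 and 79, and without destructured replicates 1 to 7 it was 14, 4, 2, 9, 3, 27 and 4. The pig number as a random block could not be fitted, since only 1 number is shared. The difference within RPL11 (probes 5837 and 5818) passed in 18 and that within RPL19 (5118 and 8289) in 16 of 23 alternatives, chosen after the data were seen. Background signal was not analysed here, so the limit set by dim spots cannot be told.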
